A study of Mus musculus with 18 samples.

Results

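CPTH6-treated libraries of polycystic liver disease (PLD) cholangiocytes were compared with untreated PLD libraries, gene by gene. The comparison took every library titled PLD at 3 months with CPTH6 (3 libraries) and every library titled PLD at 2 months with no compound named (3 libraries), which is 6 of the 18 libraries of the series. Cholangiocytes form the epithelium of bile ducts, and in PLD these ducts widen into cysts. The compound CPTH6 is known to inhibit 2 histone acetyltransferases, Kat2a and Kat2b. All libraries of the treated and untreated groups described here came from mice of the PLD genotype, and the untreated libraries were taken 2 months after tamoxifen induction. The treated libraries carry 3 months in their titles, and the labels describe their construction and that of the untreated libraries in separate sentences, with the same sequencing platform. The labels name no inactivated gene, no Cre driver and no allele, and the dose, duration and vehicle of CPTH6 are not given in the sources used here. A vehicle-treated PLD group at 3 months was not analysed here. Treatment, time and library set therefore changed together, and their shares in any difference below cannot be told apart. PLD libraries treated with ML324, which is known to block histone demethylases of the KDM4 family, and titled 3 months as well, gave a second comparison (3 libraries), and untreated PLD libraries at 1 month gave values for time (3 libraries). The fit of that time comparison also held the 6 wild-type libraries of the series, 3 at 1 month and 3 at 2 months, for a shared estimate of spread.

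All cells came from perfused livers, from which the parenchyma was stripped. The remaining biliary tree was minced and digested, and cells were pulled out on beads against EpCAM, an epithelial surface protein. Purity was assessed by the study with cytokeratin-19 staining. The labels do not say whether replicates came from separate animals, so p-values measure only the spread between these libraries, which may be technical.

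Histone acetyltransferases place acetyl groups on histone tails, a mark associated with active genes. Kat2a and Kat2b are alternative catalytic subunits of the large coactivator complexes SAGA and ATAC. Cysts of the liver grow by proliferation and secretion of their cholangiocyte lining and are surrounded by stroma made of fibroblasts, matrix and immune cells.

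Total counts assigned to genes were 25646673 to 29161949 in the CPTH6 libraries, 16345740 to 17922506 in the ML324 libraries and 17048976 to 19958375 in the untreated PLD libraries at 2 months. Levels are given as CPM, that is, counts scaled for library size. Changes are log2 fold changes ± standard error with 3 libraries a group, tested with the quasi-likelihood test of edgeR, and a call is an adjusted p under 0.05 over all genes tested. The cholangiocyte label held in every library: the 20 cholangiocyte markers summed to 30908 to 37931 CPM with CPTH6 and 22443 to 23071 CPM without it. Marker lists of other cells differed between the groups. Stellate cell and fibroblast markers summed to 496 to 595 CPM with CPTH6, against 4360.3 to 9612 CPM in untreated PLD. Endothelial markers summed to 352 to 556 CPM with CPTH6 and to 1113 to 1992 CPM without it. Neutrophil markers summed to 106, 812 and 1161 CPM in CPTH6 replicates 1, 2 and 3, against 17.3 to 52.6 CPM in untreated PLD. No fibroblast or endothelial marker was at 0 in any of these libraries, whereas 1 to 3 of the 11 neutrophil markers were at 0 in each untreated library. In such bulk samples, fewer cells of a type and less RNA per cell cannot be told apart.

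**Figure D1:**
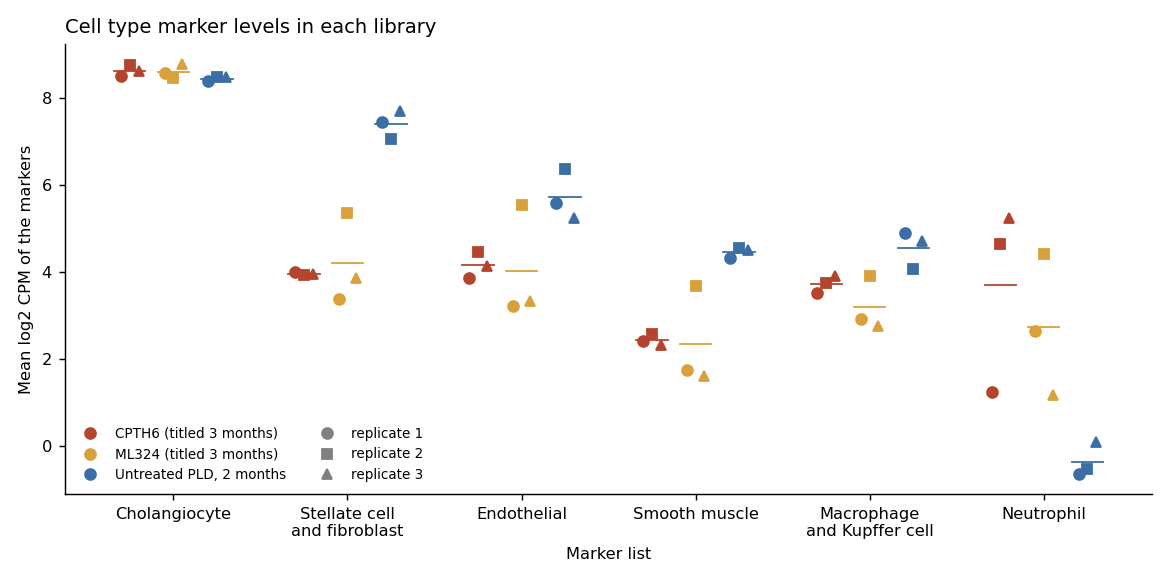
Mean log2 CPM of the markers of 6 cell types in each library of the CPTH6, ML324 and untreated PLD 2 month groups, with a line at each group mean. Fibroblast, smooth muscle and endothelial markers of the CPTH6 libraries lie below those of all untreated libraries, the neutrophil markers lie above them, and ML324 replicate 2 stands apart from the other ML324 libraries.

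Of 16502 genes tested, 3818 were called between CPTH6 and untreated PLD (23.1%), 1549 of them higher with CPTH6 (9.39%) and 2269 lower (13.7%). The counts given for gene lists below are to be read beside these shares over all genes. The median change over all genes tested was -0.04. Large changes were mostly decreases: 735 genes fell by a log2 fold change of 2 or more, and 129 rose by as much. The number of calls was 2496 without CPTH6 replicate 1, 2490 without CPTH6 replicate 3 and 2530 without untreated replicate 3. With the mean of the endothelial markers as a covariate it was 1753.

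The largest increases fell into neutrophil genes and a few others. S100a9, which encodes a subunit of the neutrophil protein calprotectin, had 39.1, 210 and 376 CPM with CPTH6 and 3.50, 3.64 and 9.0 CPM in untreated PLD (5.26 ± 0.97, adjusted p = 0.00485). Its partner S100a8 had 21.7, 145 and 241 CPM with CPTH6, against 2.54, 3.23 and 5.73 CPM without it (5.13 ± 1.03, adjusted p = 0.00717). The groups did not overlap for either gene, which the rule for naming the largest changes required. CPTH6 replicate 1 was the lowest treated library for both. S100a8 missed the threshold in limma-voom (adjusted p = 0.0717). The granule protein gene Ngp had 5.06, 181 and 195 CPM with CPTH6, against 1.23 CPM or less in untreated PLD (7.84 ± 1.80), and limma-voom did not call it (adjusted p = 0.317). Retnlg (6.97 ± 1.65), a resistin-like gene of neutrophils, and Camp (7.08 ± 1.75), which encodes the antimicrobial cathelicidin, rose as well. Untreated PLD had so few reads of these 3 genes that their folds are imprecise. The call of Camp was lost when any 1 of the untreated libraries was left out (adjusted p of 0.0514 to 0.0674), that of Retnlg without untreated replicate 1 or 3 (adjusted p of 0.0509 and 0.0606) and that of Ngp without untreated replicate 3 (adjusted p = 0.0548).

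Acod1, which makes the immune metabolite itaconate, was more even across replicates. It had 74.0, 89.2 and 132 CPM with CPTH6, against 6.14, 4.36 and 14.3 CPM in untreated PLD (3.56 ± 0.42, adjusted p = 0.00077). Of the 11 neutrophil markers, 8 rose and 0 fell, with a median of 5.48. The number that rose was 5 without CPTH6 replicate 2 or without replicate 3, it was 3, 4 and 4 without untreated replicate 1, 2 and 3, and it was 1 by limma-voom. Mpo, an enzyme of the early granules, had 0.0395, 4.15 and 7.32 CPM with CPTH6, against 0, 0.0513 and 0.142 CPM in untreated PLD. Elane, a protease of the same granules, had 0.0790, 1.81 and 5.69 CPM with CPTH6, against 0, 0 and 0.142 CPM without it. The groups overlapped for both, with CPTH6 replicate 1 at the untreated level. The median of 5.48 was the change of Elane. The neutrophil surface gene Ly6g had 0 CPM in every untreated library. Elane, Ly6g, Mpo, Camp, Retnlg and Ngp entered the test only through treated libraries, so they had little room to fall. All of them but Ly6g are among the 8 that rose. That count and the median therefore partly follow from how genes entered the test.

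The largest decreases were genes of mesenchymal cells and of the interferon response. Hand2, a transcription factor of mesenchymal cells, had 1.46, 1.93 and 1.43 CPM with CPTH6, against 35.9, 57.7 and 43.7 CPM in untreated PLD (-4.83 ± 0.39, adjusted p = 0.000333). Col1a1, an alpha chain of type I collagen, had 61.1, 50.2 and 43.6 CPM with CPTH6 and 1240.5, 401 and 1608 CPM in untreated PLD (-4.39 ± 0.53, adjusted p = 0.000779). Every treated library was below every untreated one for both genes. The rule for naming the largest changes required this, and 42.5% of all genes tested had no overlap. Col1a2, the partner chain, fell by 4.28 ± 0.49, the matrix protein gene Thbs2 by 4.23 ± 0.51, the extracellular protease gene Adamts12 by 4.46 ± 0.58 and Dpep1, a membrane dipeptidase, by 4.60 ± 0.63.

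**Figure D2:**
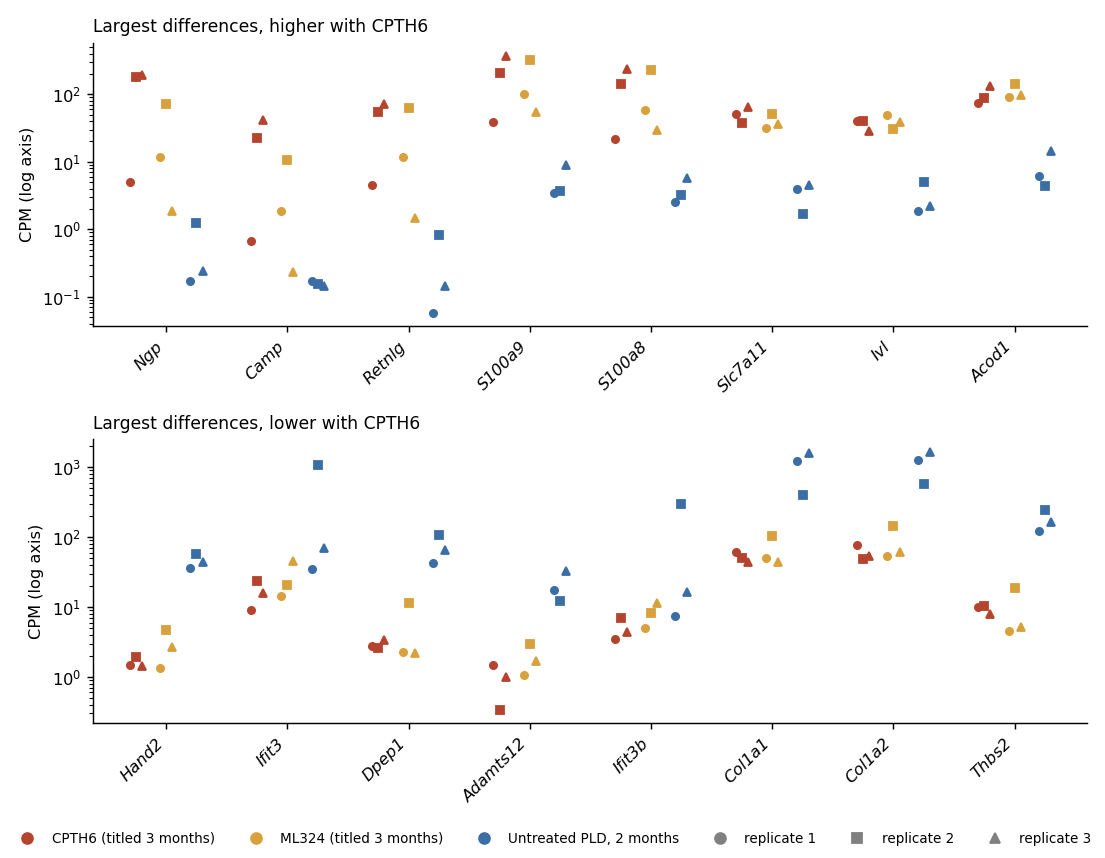
CPM in each library, on a log axis, of the 8 genes with the largest increases and the 8 with the largest decreases between CPTH6 and untreated PLD libraries, with the ML324 libraries between them. Slc7a11, Ivl and Acod1 are even among treated libraries, whereas the neutrophil genes are low in CPTH6 replicate 1 and Ifit3 and Ifit3b are high in untreated replicate 2.

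All 20 stellate cell and fibroblast markers fell, by a median of 3.50 on the log2 scale, set against the median of -0.04 over all genes. Among them, Mmp2, a gelatinase, had 30.4, 29.6 and 20.4 CPM with CPTH6 and 352, 360 and 382 CPM in untreated PLD (-3.76 ± 0.34, adjusted p = 0.000359). Pdgfrb (-3.92 ± 0.42) and Pdgfra (-3.44 ± 0.37), the receptors for platelet-derived growth factors, were lower too. Of the smooth muscle markers 9 of 10 fell (median -2.20), a count that was 4, 5 and 3 without CPTH6 replicate 1, 2 and 3. Endothelial markers held 7 decreases among 16 (median -1.74), with 2, 3 and 2 in those same fits and 3 without untreated replicate 2. Macrophage and Kupffer cell markers held 8 decreases among 17 (median -1.01), and 5 without CPTH6 replicate 1 or 2. In these 4 lists no marker rose. Untreated PLD at 2 months set against 1 month, a comparison that uses the same 2 month libraries, had a median of -0.97 for the fibroblast markers with 0 called, of -1.92 for the smooth muscle markers with 5 lower and of -1.82 for the endothelial markers with 11 lower. The macrophage markers went the other way with time, with a median of 0.93, 3 higher and 1 lower. That comparison called 9.61% of all genes tested, 4.38% higher and 5.23% lower.

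Of 18 basement membrane genes tested, 10 fell and 2 rose, with a median of -0.87, and 1 rose when any 1 of the 6 libraries was left out. Col4a2, a chain of the type IV collagen network, had 124, 114 and 115 CPM with CPTH6 and 527, 488 and 648 CPM in untreated PLD (-2.24 ± 0.20, adjusted p = 0.000363). Lama2 (-3.58 ± 0.39), Nid1 (-3.16 ± 0.35) and Lama1 (-3.15 ± 0.31) fell as well. Treated libraries lay below untreated ones for Col4a2 without overlap. Fibroblast, smooth muscle and endothelial markers fell in the same libraries, and their part here was not tested.

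In the Hedgehog list 8 of 12 genes fell and 0 rose (median -0.90). Gli1, a transcription factor and target of the pathway, had 1.66, 1.33 and 1.32 CPM with CPTH6 and 15.1, 21.0 and 16.4 CPM in untreated PLD (-3.60 ± 0.43, adjusted p = 0.000752). Hhip, which binds and inhibits the ligands, fell by 3.83 ± 0.46 and the transcription factor Gli3 by 3.57 ± 0.40. The receptor Ptch1 (-0.90 ± 0.19) and the ligand Ihh (-0.54 ± 0.16) changed less. Leaving out CPTH6 replicate 1 or 2, or untreated replicate 1, 2 or 3, left 5, 4, 5, 5 and 4 calls in this list.

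Wnt ligands and targets held 7 decreases and 1 increase among 17 (median -0.72). Axin2, a feedback inhibitor of the pathway, had 5.21, 3.19 and 2.94 CPM with CPTH6 and 29.1, 50.7 and 40.4 CPM in untreated PLD (-3.41 ± 0.31, adjusted p = 0.000363). The inhibitors Nkd1 (-3.42 ± 0.33) and Notum (-2.98 ± 0.38) fell too, whereas Myc rose (0.72 ± 0.17). The ligand gene Wnt4 fell by 0.97 ± 0.19. In the TGF-beta list 10 of 20 genes fell and 3 rose (median -0.45). Ltbp1, which holds latent TGF-beta in the matrix, had 18.3, 19.2 and 14.7 CPM with CPTH6 and 46.9, 51.7 and 57.8 CPM in untreated PLD (-1.58 ± 0.13, adjusted p = 0.000333). The ligand Tgfb1 fell (-1.18 ± 0.20), and the signal transducer Smad3 rose (0.75 ± 0.15). The increases in this list numbered 1 without CPTH6 replicate 3 or untreated replicate 3, and those among Wnt genes numbered 0 without CPTH6 replicate 1 or 2 or untreated replicate 3 and 2 without CPTH6 replicate 3. Fibroblast markers fell in the same libraries as the genes of these 3 pathways, and their part in these changes was not tested.

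**Figure D3:**
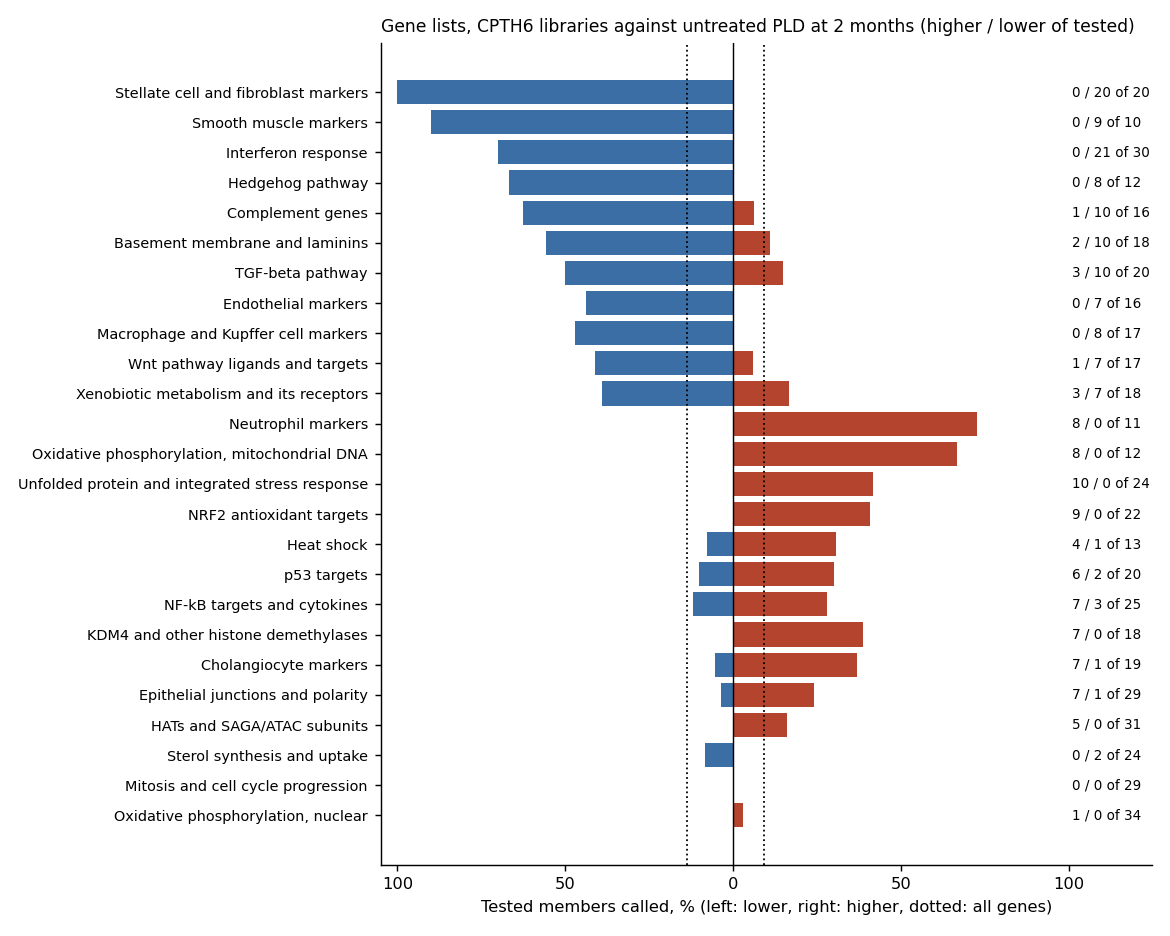
Percent of the tested members of 25 gene lists called lower (left) or higher (right) in CPTH6 than in untreated PLD libraries, with the counts higher and lower of those tested at the right and dotted lines at the shares over all genes tested, 13.7% and 9.39%. Fibroblast markers reach 20 of 20 lower, and neutrophil markers and genes of the mitochondrial genome lie farthest to the higher side. Several of the neutrophil markers entered the test only through treated libraries.

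Interferon response genes were lower with CPTH6, with 21 of 30 fallen and 0 risen (median -2.18). The groups did not overlap for 18 of the 30, where 42.5% of all genes tested had no overlap. Interferons act through receptors whose signal brings transcription factors to the interferon-stimulated response element near target genes. Ifit2, which binds viral RNA, had 8.45, 14.0 and 13 CPM with CPTH6, against 45.5, 135 and 47.5 CPM in untreated PLD (-2.68 ± 0.40, adjusted p = 0.00206). Rsad2, the antiviral enzyme viperin, had 21.1, 27.6 and 20.2 CPM with CPTH6, against 83.1, 373 and 77.1 CPM without it (-2.95 ± 0.55, adjusted p = 0.00539). Isg15, a ubiquitin-like modifier, had 17.2, 19.1 and 15.7 CPM with CPTH6 and 43.1, 318 and 62.7 CPM in untreated PLD (-3.03 ± 0.67, adjusted p = 0.011). In all 3 genes the treated libraries lay below every untreated library, and untreated replicate 2 was the highest.

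Untreated replicate 2 stood far above the other libraries for further genes. Ifit3 had 9.20, 23.6 and 15.9 CPM with CPTH6, against 34.5, 1092 and 70.6 CPM in untreated PLD (-4.62 ± 1.21, adjusted p = 0.0231). Its call was lost without untreated replicate 2 (adjusted p = 0.0506) and when any 1 of the CPTH6 libraries was left out (adjusted p of 0.067 to 0.0833). Ifit3b (-4.43 ± 1.21) was not called in these 4 fits (adjusted p of 0.0684 to 0.0918). It lies beside Ifit3, and reads shared between these copies can move both. Without untreated replicate 2 the list held 14 decreases, with a median of -1.03, and without CPTH6 replicate 1, 2 or 3 it held 4, 9 and 5. With the endothelial covariate 2 members were called, and by limma-voom 9. Untreated PLD at 2 months, set against 1 month with the same 2 month libraries, had a median of 1.47 for this list, with 5 genes higher and 1 lower.

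The promoters of Ifit3, Isg15 and Rsad2 are shown because they hold letters of the core of the interferon-stimulated response element. Each window runs from 250 bases before to 50 bases after the start site, 5′ to 3′ on the gene's strand, from RefSeq on GRCm38.p6, and capitals mark matches to TTTCNNTTT, a core of that element, on either strand. The windows are chr19:34583279-34583578 (plus strand), chr4:156200769-156201068 (minus strand) and chr12:26456403-26456702 (minus strand).
Ifit3: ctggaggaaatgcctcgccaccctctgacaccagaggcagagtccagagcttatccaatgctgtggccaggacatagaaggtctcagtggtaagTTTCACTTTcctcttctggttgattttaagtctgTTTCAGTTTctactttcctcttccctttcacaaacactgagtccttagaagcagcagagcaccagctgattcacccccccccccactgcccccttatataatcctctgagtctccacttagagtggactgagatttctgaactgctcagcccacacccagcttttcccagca
Isg15: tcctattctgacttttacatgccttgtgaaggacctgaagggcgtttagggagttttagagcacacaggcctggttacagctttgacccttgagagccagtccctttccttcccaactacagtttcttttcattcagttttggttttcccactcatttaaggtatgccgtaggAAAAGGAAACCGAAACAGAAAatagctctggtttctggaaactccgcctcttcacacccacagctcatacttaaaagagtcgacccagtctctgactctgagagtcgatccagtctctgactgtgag
Rsad2: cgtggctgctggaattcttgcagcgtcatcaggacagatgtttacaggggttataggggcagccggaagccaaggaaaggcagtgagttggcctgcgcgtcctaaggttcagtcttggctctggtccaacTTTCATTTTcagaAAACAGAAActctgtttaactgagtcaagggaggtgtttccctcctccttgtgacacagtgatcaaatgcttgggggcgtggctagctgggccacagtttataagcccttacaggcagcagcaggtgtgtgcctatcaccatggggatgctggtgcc
Ifit3 had 2 matches, Isg15 3 overlapping ones on the opposite strand and Rsad2 1 on each strand. The letters occurred in 10.7% of 27025 promoter windows, in 16 of the 24 interferon genes with a window and in 14 of the 17 such genes that were called. Ifit2, which also fell, had 0 matches in its window.

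**Figure D4:**
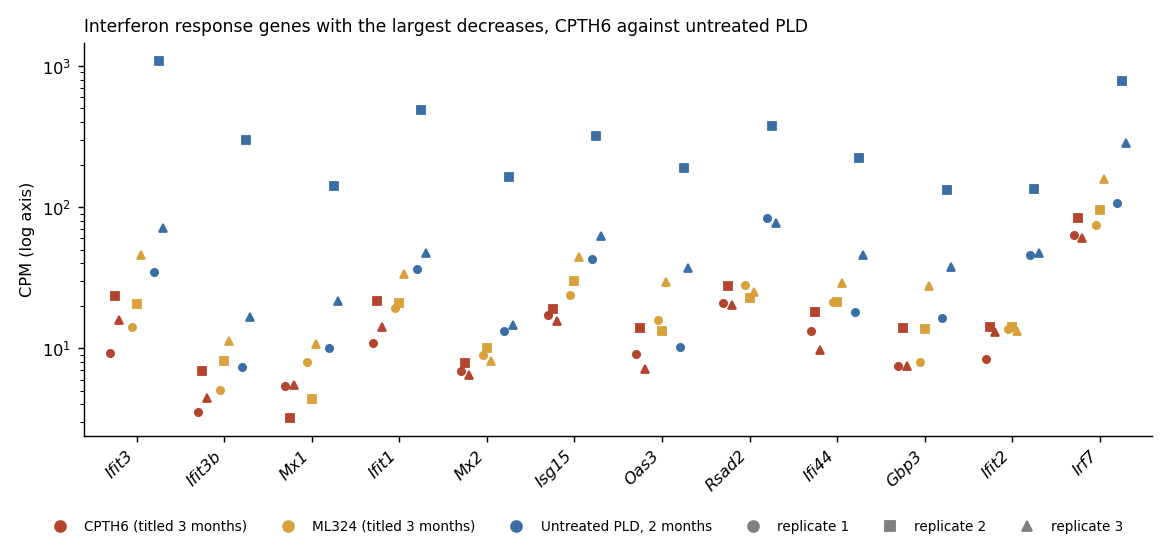
CPM in each library, on a log axis, of the 12 interferon response genes with the largest decreases among the 21 called between CPTH6 and untreated PLD libraries. Untreated replicate 2 is the highest library for every gene shown, and for several genes untreated replicate 1 lies near the treated libraries.

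Complement genes held 10 decreases and 1 increase among 16 (median -1.46), and the increase was not called without CPTH6 replicate 2 or 3 or untreated replicate 1. C1ra, a protease gene of the classical pathway, had 14.5, 17.3 and 16.8 CPM with CPTH6 and 72.2, 86.6 and 91.8 CPM in untreated PLD (-2.37 ± 0.31, adjusted p = 0.00101). Its partner protease C1s1 fell (-3.13 ± 0.51), and C1qa, C1qb and C1qc, which are also macrophage markers, fell by 1.56 to 1.78. The treated libraries lay below the untreated ones for each of these genes. Fibroblast and macrophage markers fell in the same libraries, and their part here was not tested.

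The factor NRF2 is released when reactive compounds modify its inhibitor, and it drives glutathione and thioredoxin genes. Of its 22 listed targets, 9 rose and 0 fell (median 0.36). Slc7a11, the cystine importer for glutathione synthesis, had 51.2, 37.8 and 65.9 CPM with CPTH6 and 4.00, 1.69 and 4.59 CPM in untreated PLD (3.91 ± 0.36, adjusted p = 0.000363). Srxn1, which reactivates oxidised peroxiredoxins, had 110, 102 and 134 CPM with CPTH6, against 32.5, 24.2 and 31.5 CPM without it (1.97 ± 0.15, adjusted p = 0.000242). The groups stood well apart for both genes, and for Slc7a11 the rule for naming the largest changes required no overlap. Txnrd1 (thioredoxin reductase, 1.03 ± 0.13), Hmox1 (haem oxygenase, 1.15 ± 0.24) and Gclc (the catalytic subunit of glutamate-cysteine ligase, 0.91 ± 0.21) rose as well. Letters of the antioxidant response element, TGACNNNGC on either strand, occurred in 12.4% of all promoter windows and in 6 of 19 windows of this list. They occurred in 3 of the 7 windows of called genes. Srxn1 had 1 match, and Slc7a11 and Txnrd1, which also rose, had 0 matches in their windows.

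Genes of the unfolded protein and integrated stress responses held 10 increases and 0 decreases among 24 (median 0.28). Dnajb9, a chaperone partner of the endoplasmic reticulum, had 240, 241 and 219 CPM with CPTH6 and 120, 109 and 90.4 CPM in untreated PLD (1.13 ± 0.11, adjusted p = 0.000402). The transcription factor Atf4 (0.89 ± 0.16), the chaperone Hspa5 (0.88 ± 0.18) and Sesn2, a stress-induced inhibitor of growth signalling (1.71 ± 0.30), rose too. In this list 4, 4, 6, 6 and 4 increases were called without CPTH6 replicate 1, 2 or 3 or untreated replicate 1 or 3. Of 20 p53 targets 6 rose and 2 fell. Gadd45a, a DNA damage response gene, had 193, 177 and 215 CPM with CPTH6 and 57.8, 57.2 and 62.3 CPM in untreated PLD (1.72 ± 0.12, adjusted p = 0.000163). Cdkn1a, which encodes the cell cycle inhibitor p21, rose by 1.36 ± 0.16, and Bax, which promotes apoptosis, fell by 0.51 ± 0.10. The decreases among p53 targets numbered 1 without CPTH6 replicate 2 or 3 or untreated replicate 1.

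Of 13 heat shock genes tested, 4 rose and 1 fell, where 9.39% of all genes rose and 13.7% fell. Hsp90aa1 (0.88 ± 0.13) and the co-chaperone Bag3 (0.85 ± 0.17) were higher, and Hspa1a was lower (-1.16 ± 0.28). Only 2 rose without CPTH6 replicate 1 or untreated replicate 3, and Hspa1a was not called without CPTH6 replicate 2 or 3 or untreated replicate 1 (adjusted p of 0.0501 to 0.0688). Sqstm1, the autophagy receptor p62, averaged 3554 ± 94.5 CPM with CPTH6 and 1324 ± 176 CPM in untreated PLD (1.42 ± 0.13, adjusted p = 0.000363). The glucose transporter gene Slc2a1 had 182, 196 and 180 CPM with CPTH6, against 90.9, 92.2 and 73.5 CPM without it, and was called higher (adjusted p = 0.000449). Among inflammatory genes, 7 of 25 NF-kB targets and cytokines rose and 3 fell, beside the same shares of all genes. The prostaglandin synthase gene Ptgs2 (1.13 ± 0.22) and the interleukin gene Il1b (1.38 ± 0.36) were among those that rose. Tnf (-1.05 ± 0.25) and the chemokine gene Ccl2 (-2.13 ± 0.43) were among those that fell. The number that rose was 4 without CPTH6 replicate 2 or 3 or untreated replicate 3, and the number that fell was 1 without CPTH6 replicate 2 or 3. Neutrophil markers rose and macrophage markers fell in the same libraries, and their part in these inflammatory genes was not tested.

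Among immediate early genes, 5 of 26 rose and 1 fell, and Fosl1, an AP-1 subunit, rose most. It had 130, 116 and 105 CPM with CPTH6 and 24.8, 22.7 and 27.0 CPM in untreated PLD (2.23 ± 0.13, adjusted p = 0.000109). Ivl, which encodes the cornified envelope protein involucrin, had 40.0, 40.0 and 28.5 CPM with CPTH6 and 1.86, 5.03 and 2.18 CPM in untreated PLD (3.58 ± 0.36, adjusted p = 0.000398). Sprr1a, another envelope protein gene, had 530, 456 and 257 CPM with CPTH6, against 60.4, 54.7 and 72.2 CPM without it (2.73 ± 0.31, adjusted p = 0.000688). The treated and untreated libraries did not overlap for these 3 genes, which the rule for naming the largest changes required of Ivl. The number of immediate early genes that rose was 3 without CPTH6 replicate 1 or 2 or untreated replicate 3, and 11 without untreated replicate 2. The decrease was not called without CPTH6 replicate 1 or 3.

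The promoters of Sprr1a and Ivl are shown because both genes are known targets of AP-1 in keratinocytes. Capitals mark the AP-1 letters TGANTCA on either strand, in RefSeq windows of GRCm38.p6 at chr3:92485832-92486131 and chr3:92573686-92573985 (both on the minus strand).
Sprr1a: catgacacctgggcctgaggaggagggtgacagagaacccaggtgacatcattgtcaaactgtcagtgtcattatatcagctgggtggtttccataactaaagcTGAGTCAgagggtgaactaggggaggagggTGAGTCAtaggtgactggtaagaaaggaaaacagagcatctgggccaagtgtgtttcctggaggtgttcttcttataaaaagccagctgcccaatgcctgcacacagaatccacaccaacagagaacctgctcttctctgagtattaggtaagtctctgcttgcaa
Ivl: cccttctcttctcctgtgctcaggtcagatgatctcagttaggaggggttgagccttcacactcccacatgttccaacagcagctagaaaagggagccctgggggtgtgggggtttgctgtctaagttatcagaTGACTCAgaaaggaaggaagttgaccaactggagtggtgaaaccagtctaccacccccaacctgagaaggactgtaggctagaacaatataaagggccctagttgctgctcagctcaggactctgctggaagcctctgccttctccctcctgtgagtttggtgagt
Sprr1a had 2 matches and Ivl 1. These letters occurred in 7.87% of all promoter windows and in 0 of 22 windows of the immediate early genes.

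Genes of the known targets of the compounds were not called. Kat2a had 31.2, 30.5 and 26.1 CPM with CPTH6 and 33.4, 50.2 and 37.7 CPM in untreated PLD (-0.47 ± 0.17, adjusted p = 0.0699). Kat2b had 103, 117 and 99.8 CPM with CPTH6, against 75.7, 99.2 and 70.4 CPM without it (0.38 ± 0.14, adjusted p = 0.0842). Neither was called, although the groups did not overlap for either. The demethylase genes Kdm4a (-0.29 ± 0.13), Kdm4b (-0.22 ± 0.13) and Kdm4c (0.11 ± 0.10) were not called either. Of 31 acetyltransferases and SAGA or ATAC subunits 5 rose and 0 fell (median 0.06), among them Kat5 (0.41 ± 0.08) and the ATAC subunit Zzz3 (0.48 ± 0.10), with 2 called without CPTH6 replicate 1 or untreated replicate 3 and 3 without CPTH6 replicate 3 or untreated replicate 1. Of 18 histone demethylases tested 7 rose and 0 fell (median 0.14). Jmjd1c, of the family of H3K9 demethylases, had 472, 610 and 535 CPM with CPTH6 and 226, 180 and 186 CPM in untreated PLD (1.45 ± 0.15, adjusted p = 0.000416). Kdm5b (0.64 ± 0.12) and Kdm5a (0.45 ± 0.09) rose less. Without CPTH6 replicate 1 or untreated replicate 3 the count was 3 and 4.

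Of 12 genes of polycystic disease, 1 fell and 1 rose. Pkd1, which encodes polycystin-1, a large membrane protein of the primary cilium, had 105, 93.5 and 106 CPM with CPTH6 and 194, 197 and 182 CPM in untreated PLD (-0.91 ± 0.10, adjusted p = 0.000495). Pkhd1, which encodes fibrocystin, had 436, 379 and 522 CPM with CPTH6, against 288, 194 and 290 CPM without it (0.79 ± 0.17, adjusted p = 0.00967). Pkd1 was lower and Pkhd1 higher in every treated library than in any untreated one, and Pkhd1 was not called with the endothelial covariate (adjusted p = 0.113). Polycystin-2 (Pkd2) differed by 0.35 ± 0.13 (adjusted p = 0.0756), and Prkcsh (0.04 ± 0.09) and Sec63 (0.17 ± 0.08), which serve protein processing in the endoplasmic reticulum, were not called.

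Of 19 cholangiocyte markers tested 7 rose and 1 fell (median 0.24). Epcam, the protein used for capture, had 809, 931 and 816 CPM with CPTH6 and 503, 400 and 513 CPM in untreated PLD (0.85 ± 0.14, adjusted p = 0.00278). Spp1, the secreted protein osteopontin, had 6739, 7480 and 6213 CPM with CPTH6, against 3460.0, 2096 and 3616 CPM without it (1.16 ± 0.20, adjusted p = 0.00409). Ehf, an epithelial transcription factor, rose by 0.87 ± 0.12. Krt19 (0.24 ± 0.16, adjusted p = 0.306), Krt7 (-0.25 ± 0.23, adjusted p = 0.474) and the cyst-associated surface protein gene Psca (-0.32 ± 0.24, adjusted p = 0.381) were not called. The water channel gene Aqp1, also expressed in endothelium, was the marker that fell (-2.34 ± 0.66), and its call was lost when any 1 CPTH6 library or untreated replicate 2 was left out. Sox9, a duct transcription factor, rose (1.08 ± 0.32, adjusted p = 0.0378), but its call held only in the full data and without untreated replicate 2 among the fits that left out a library of either group. The count of markers that rose was 4, 3, 3, 3 and 3 without CPTH6 replicate 1, 2 or 3 or untreated replicate 1 or 3. Junction genes held 7 increases and 1 decrease among 29: the plaque protein gene Pkp2 rose (0.64 ± 0.12) and the claudin gene Cldn3 fell (-0.42 ± 0.10). Without CPTH6 replicate 2 or 3, or untreated replicate 1, 2 or 3, the increases numbered 4, 4, 4, 4 and 3, and without CPTH6 replicate 3 or untreated replicate 1 no junction gene was called lower.

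Of 12 mitochondrial genes tested 8 rose and 0 fell (median 0.65), and 5 did without CPTH6 replicate 3. Nuclear respiratory genes held 1 increase and 0 decreases among 34 (median 0.08), and 0 increases without CPTH6 replicate 1 or 3 or untreated replicate 2 or 3. mt-Nd4, a complex I subunit, had 1343, 1374 and 1246 CPM with CPTH6 and 964, 914 and 794 CPM in untreated PLD (0.57 ± 0.11, adjusted p = 0.00564). mt-Co1, a subunit of cytochrome c oxidase, had 11152, 12888 and 11296 CPM with CPTH6, against 7143, 8110.5 and 6142 CPM without it (0.72 ± 0.16, adjusted p = 0.0109). All treated libraries were above all untreated ones for both genes. Some mitochondrial genes have near-identical nuclear copies and few uniquely assigned reads, which makes their values uncertain.

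Mitosis genes gave no call with edgeR. Of 29 tested, 0 rose and 0 fell (median 0.02), with 4 at an unadjusted p under 0.05. DESeq2 called 2 higher and 1 lower, and limma-voom 2 higher. Mki67 had 16.0, 30.7 and 27.2 CPM with CPTH6 and 17.0, 9.74 and 25.9 CPM in untreated PLD (0.49 ± 0.33, adjusted p = 0.321). The groups overlapped for this proliferation marker, and no difference was detected. Of 30 DNA replication genes 3 rose and 0 fell, where 9.39% of all genes tested were called higher. In the sterol list 2 of 24 fell, but 0 fell without CPTH6 replicate 2 or 3 or untreated replicate 3. Xenobiotic genes held 7 decreases and 3 increases among 18, with Cyp2e1 at 37.9, 41.8 and 36.7 CPM with CPTH6 and 408, 637 and 329 CPM in untreated PLD (-3.56 ± 0.30, adjusted p = 0.000333). The number that fell was 4 without CPTH6 replicate 2 or 3 or untreated replicate 1. Cyp2e1 is also a hepatocyte marker. Of 21 hepatocyte markers tested 4 rose and 3 fell (median -0.05), where 9.39% of all genes rose and 13.7% fell. The iron carrier gene Trf (-1.53 ± 0.27) and the urea cycle gene Ass1 (-0.62 ± 0.18) fell along with Cyp2e1. Hp (2.07 ± 0.46), the urea cycle gene Arg1 (1.98 ± 0.22), Fgg (0.80 ± 0.25) and Ttr (0.75 ± 0.14) rose. The hepatocyte markers, which include albumin (Alb), summed to 6096 to 7326 CPM with CPTH6 and 3254 to 6420 CPM without it. On the scale of single genes, Alb averaged 4975 ± 463 CPM with CPTH6 and 3490.1 ± 1766 CPM in untreated PLD. It was not called (edgeR adjusted p = 0.344). The number of hepatocyte markers that fell ranged from 2 to 4 with 1 library left out.

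The comparison of CPTH6 with ML324, whose libraries share the 3 month title, asked which of these levels differed between the compounds. Of 15989 genes tested, edgeR called 0 (0%), with 2008 at an unadjusted p under 0.05. limma-voom called 0 and DESeq2 called 299, of which 167 were higher with CPTH6. None of the 3613 genes that were called against untreated PLD and tested here was called by edgeR. Slc7a11 had 51.2, 37.8 and 65.9 CPM with CPTH6 and 31.8, 50.6 and 35.8 CPM with ML324 (0.39 ± 0.23, adjusted p = 0.511). Ivl had 40.0, 40.0 and 28.5 CPM with CPTH6 and 49.8, 30.5 and 39.1 CPM with ML324 (-0.14 ± 0.20, adjusted p = 0.8). The compounds overlapped for both genes, and a p above the threshold does not show that they act alike.

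Some genes separated the compounds without overlap, as did 19.4% of all genes tested. Dnajb9 had 240, 241 and 219 CPM with CPTH6, against 147, 159 and 158 CPM with ML324 (0.59 ± 0.10, edgeR adjusted p = 0.235, DESeq2 adjusted p = 2.8e-05). mt-Nd4 had 1343, 1374 and 1246 CPM with CPTH6 and 867.5, 890 and 904 CPM with ML324 (0.57 ± 0.10, edgeR adjusted p = 0.235, DESeq2 adjusted p = 5.59e-06). Sqstm1 (0.55 ± 0.11), the adhesion receptor gene Icam1 (0.91 ± 0.18) and the chemokine gene Ccl6 (1.24 ± 0.19) were likewise higher with CPTH6 by DESeq2 and not by edgeR. Isg15 was lower by the same pattern (-0.91 ± 0.22, DESeq2 adjusted p = 0.00982). The proliferation marker Mki67 differed by 0.86 ± 0.23 between the compounds (DESeq2 adjusted p = 0.0313, edgeR adjusted p = 0.272). ML324 replicate 2 held more fibroblast, endothelial and smooth muscle marker RNA than the other ML324 libraries, and without it edgeR again called 0 genes.

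**Figure D5:**
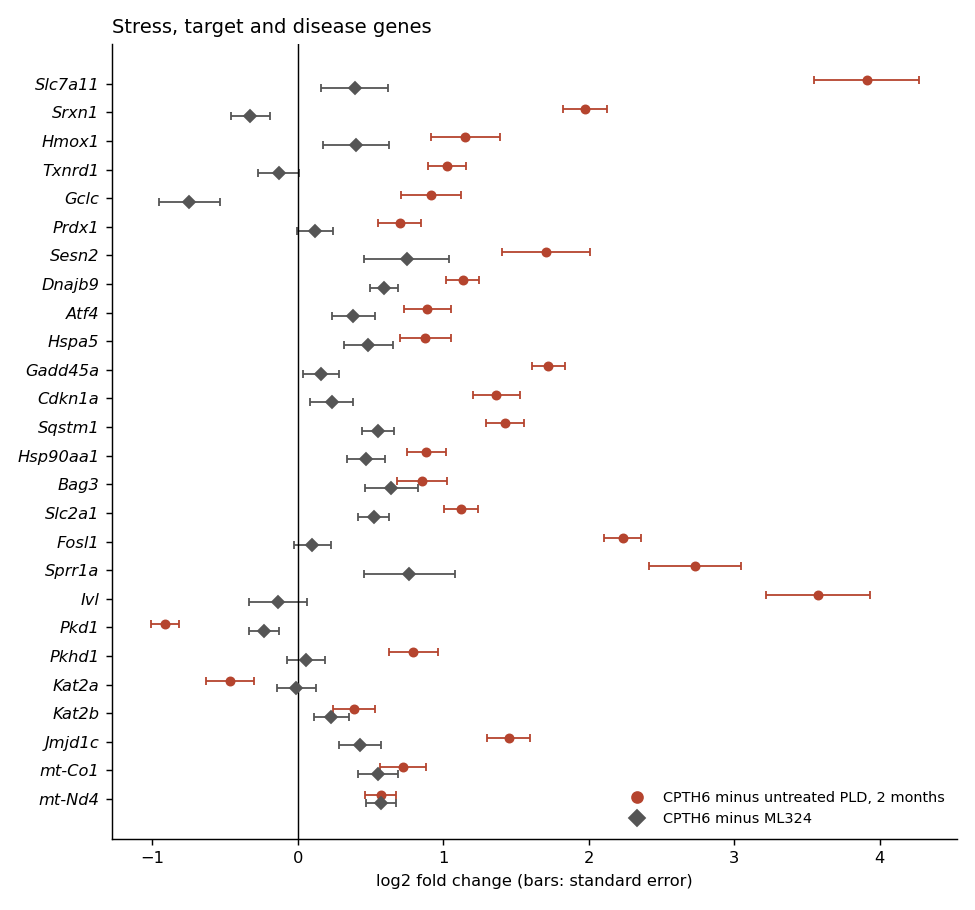
log2 fold change with its standard error of 26 stress, squamous, disease, target and mitochondrial genes, for CPTH6 minus untreated PLD at 2 months (circles) and CPTH6 minus ML324 (diamonds). Slc7a11, Ivl and Fosl1 lie far from 0 against untreated PLD and within 0.5 of it against ML324, while mt-Nd4 has about the same value in both, 0.57.

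Set side by side, ML324 against the same untreated libraries gave 3203 calls (19.4%), 1314 higher (7.96%) and 1889 lower (11.4%). Its medians were -2.91 for the fibroblast markers with 20 of 20 lower, -1.46 for the interferon genes with 11 of 30 lower and 4.74 for the neutrophil markers with 4 of 11 higher. The neutrophil count and median again include genes that entered the test only through treated libraries. The NRF2 targets had a median of 0.39 with 8 of 22 higher after ML324, and the unfolded protein and integrated stress list had 3 of 24 higher and 1 lower, with a median of 0.23. For the mitochondrial genome 4 of 12 were higher with ML324, with a median of 0.14. These values and those of CPTH6 rest on the same 3 untreated libraries and are not independent of each other.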

How the data were processed

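RNA was measured in polyA libraries of cholangiocytes, and 9 of them entered the tests of the treated groups. The deposited values are counts per gene, whole numbers of read pairs assigned to 55401 genes. Reads were aligned to mm10 with STAR 2.7.4a and counted with featureCounts 1.6.0, per the submitters' processing notes. Counting ran in pair mode on GENCODE with its default settings, per the file headers, which leave out pairs that align to several copies and ignore strand, so overlapping and antisense genes cannot be told apart. Symbols were found for 55141 genes.

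The main test was edgeR 4.0.16 in R 4.3.3 (filterByExpr, TMM scaling, quasi-likelihood F-test, Benjamini-Hochberg adjustment, threshold 0.05), fitted on CPTH6, ML324 and untreated PLD at 2 months together. CPTH6 against ML324 used their 6 libraries, and PLD at 2 months against 1 month used the 12 untreated libraries, wild type included. Standard errors are the log2 fold change over the square root of F. Marker levels are log2 CPM with a prior count of 2. DESeq2 1.42.0 and limma 3.58.1 (voom) were alternatives. The script was tested on simulated data.

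Named genes are, per comparison, the 8 largest changes each way among called genes without overlap that averaged 10 CPM or more (predicted gene names left out), up to 4 called members of each list with the smallest adjusted p, and 16 fixed genes. Other genes named were chosen after their values were seen. Members and lists were chosen with earlier results of these data known. Depth limits low genes: at these totals a level under 0.2 CPM rests on few reads.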

Additional observations from a re-analysis of the deposited data

How the results depend on the processing

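The direction of all 176 named called genes was the same under every alternative tried, and 106 of them stayed called throughout. The count of 3818 calls became 1753 with the endothelial marker mean as a covariate, where 58 named genes lost their call, and 1761 when an absolute log2 fold change of 1 was also required. With 1 library left out it ranged from 2490 to 3975. It was 4426 by DESeq2, 3907 by limma-voom, 3806 with RLE scaling, 3950 with upper quartile scaling, 4522 without a filter, 3755 with at least 1 CPM in 3 libraries and 3930 with the 6 libraries alone. The 0 calls between CPTH6 and ML324 became 299 by DESeq2 and 232 without a filter, and ranged from 0 to 3 with 1 library left out. The causes were not tested.

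Replicate numbers did not pair the CPTH6 and untreated libraries. Those of the same number had correlations of -0.03, 0.11 and -0.03 of their deviations from the group means. Same-numbered CPTH6 and ML324 libraries had correlations of 0.32, 0.20 and -0.11, and those of different numbers ranged from -0.37 to 0.25. With the replicate block 3593 genes were called against untreated PLD, 168 named genes kept their call, and 1 gene was called against ML324.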

Other observations

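The genes here were chosen after their values were seen. Near Ivl and Sprr1a on chromosome 3, the hair follicle gene Tchh rose by 1.47 ± 0.25 (edgeR adjusted p = 0.00357), and S100a10 rose by 0.94 ± 0.10 (adjusted p = 0.000495). S100a6, in the same region, was not called (0.29 ± 0.18, adjusted p = 0.261). Elsewhere in the genome, the epithelial stress gene Sfn had 1768, 2494 and 1938 CPM with CPTH6, against 575, 595 and 537 CPM in untreated PLD (1.86 ± 0.16, adjusted p = 0.000333). Plaur, the urokinase receptor gene, rose by 1.75 ± 0.15 and averaged 2273 ± 228 CPM with CPTH6 and 676 ± 95.4 CPM in untreated PLD (SD, n = 3 each). All treated libraries lay above all untreated libraries for Tchh, S100a10, Sfn and Plaur.

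The metallothionein genes Mt1 and Mt2, which lie beside each other and bind zinc and copper, parted. Mt2 had 2.25, 4.96 and 3.10 CPM with CPTH6 and 48.3, 49.3 and 29.1 CPM in untreated PLD (-3.61 ± 0.33, edgeR adjusted p = 0.000363). Mt1 had 542, 815 and 582 CPM with CPTH6, against 546, 616 and 420 CPM in untreated PLD (0.29 ± 0.18, adjusted p = 0.288). The groups overlapped for Mt1 and stood apart for Mt2, and Mt2 was called higher at 2 months than at 1 month in untreated PLD (3.33, adjusted p = 0.00676), a comparison that shares the 2 month libraries.

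Of 3 receptor genes of myeloid cells picked for their increases, Trem1 rose by 3.30 ± 0.43, Clec4d by 2.86 ± 0.36 and Clec4e by 2.76 ± 0.31. Of other receptor genes of these cells, Il1r2 rose as well (2.01 ± 0.28, edgeR adjusted p = 0.00139) and Csf1r fell (-0.46 ± 0.14, adjusted p = 0.0433). Larger decreases were called for Cd163 (-3.39 ± 0.54, edgeR adjusted p = 0.00254), Fcgr1 (-1.91 ± 0.25, adjusted p = 0.000998) and Adgre1 (-1.75 ± 0.52, adjusted p = 0.0373). Mrc1 had a negative estimate and was not called (-1.63 ± 0.53, edgeR adjusted p = 0.0508). Csf3r (0.92 ± 0.42, adjusted p = 0.146) and Cxcr2 (1.08 ± 0.60, adjusted p = 0.23) had positive estimates and were not called. Clec4e had 48.6, 51.4 and 69.8 CPM with CPTH6, against 9.98, 4.67 and 10.4 CPM in untreated PLD (edgeR adjusted p = 0.000627). In CPTH6 replicate 1, where the granule genes were low, Trem1, Clec4d and Clec4e were also at their lowest among the CPTH6 libraries.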
